A study of Mus musculus with 8 samples.

Results

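The genes described here are 30 mouse genes of antigen processing and of the major histocompatibility complex (MHC), chosen by name. Of these, 19 serve MHC class I, the immunoproteasome included, and 11 serve MHC class II. A gene was represented by the probes whose accession is one of its RefSeq transcripts, and by the brightest of them where there were several. This gave 29 of the 26123 genes tested, 18 of class I and all 11 of class II. H2-T22 had no probe with such an accession and was not analysed here. All of these apart from Erap1 were well above background in both channels on all 8 arrays, and the dim Erap1 probe missed that mark in the LECT2 channel of 1 array of the high dose and 3.5 h.

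The cells were macrophages washed from the mouse peritoneum and kept in low-glucose medium with serum. They were exposed to LECT2 (leukocyte cell-derived chemotaxin 2, a protein that hepatocytes release into blood) at a high dose of 5 µg/ml for 48 h, a low dose of 0.5 µg/ml for 48 h, the high dose for 3.5 h or the low dose for 3.5 h. On each 2-colour array RNA of LECT2-treated cells (Cy3) was hybridised together with RNA of cells kept for the same time without LECT2 (Cy5). A group is 2 arrays, 1 from each of 2 experiments that used separate mice, and there are 4 groups. Strain, age, sex and the source of the LECT2 protein are not given in the sources used here. For the early time 3.5 h is used, as in the titles, although the labels of the channels say 3 h.

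Values are log2 of LECT2 over control within an array, so that 0 means equal signal and a positive value means more signal after LECT2. Errors are the standard errors of limma's fit over all 8 arrays with n = 2 arrays per group, and p-values are adjusted over all 26123 genes by the Benjamini-Hochberg method, with a threshold of 0.05. No array had the dyes swapped, so that LECT2 and a dye effect shared by all arrays cannot be told apart. Whether the low and high arrays of a time and experiment used the same control RNA is not stated, and comparisons of both doses with control may share it.

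The assignment of arrays to groups is in doubt, which bears on every value below. In 7 of the 8 columns of the deposited ratio table the scanner file that matched the column best was recorded under another sample. Replicate 1 of the low dose and 3.5 h was the exception, and its column matched its own file at a correlation of only 0.782 across probes. Groups are given as the table labels its columns. With the scanner files assigned as recorded, 0 members passed at the high dose at either time (10 members at 48 h and 11 at 3.5 h had an unadjusted p under 0.05), 2 other members passed at the low dose and 48 h and 0 at the low dose and 3.5 h (12 unadjusted). Of all 26123 genes 2678 had such an unadjusted p at the high dose and 48 h, 2881 at the high dose and 3.5 h and 967 at the low dose and 3.5 h. After adjustment 1 of all genes passed at the high dose and 48 h, 49 at the low dose and 48 h and 0 at either dose and 3.5 h. With the files linked to the columns by their ratios, all 48 h arrays lie on one slide and all 3.5 h arrays on the other, so that slide and time cannot be told apart. Across genes the replicates correlated at 0.62 and 0.352 for the high and low dose at 48 h, and at 0.721 and 0.413 for the high and low dose at 3.5 h. Of 10 listed macrophage markers 9 could be tested, Adgre1, Csf1r and Lyz2 among them, and all 9 were well above background in both channels of every array.

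MHC class I presents peptides cut in the cytosol. The proteasome cuts proteins, the Tap1 and Tap2 transporter carries the peptides into the endoplasmic reticulum, Erap1 trims them, and tapasin (Tapbp) helps to load them onto a heavy chain paired with beta-2 microglobulin (B2m). MHC class II presents peptides made in endosomes, where the invariant chain (Cd74) is removed from the alpha and beta chains and H2-DM exchanges its remnant for peptide. Nlrc5 is the transactivator of class I genes and Ciita that of class II genes, and interferon gamma is a known inducer of both sets in macrophages.

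At the high dose and 48 h the class I processing genes stood well above control, while the class II chains did not. Of the 29 genes 11 rose, 1 fell and 17 did not pass the threshold, against 11.2% of all genes tested that passed in either direction, 4.3% that rose and 6.92% that fell. Class I held 10 of the 11 genes that rose. Both arrays were above 0 for 17 of the 29 genes, against 32.8% of all genes tested. With each array centred on its median 6 rose and 2 fell, against 6.84% and 26.4% of all genes that rose and fell in that setting. The median over the 18 class I genes was 1.27 and that over the 11 class II genes was -0.18, beside a median of -0.01 over all genes tested. The plot of every gene by array shows both arrays of this group to the right of 0 for the whole peptide supply chain, from Tap1 to Nlrc5.

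**Figure D1:**
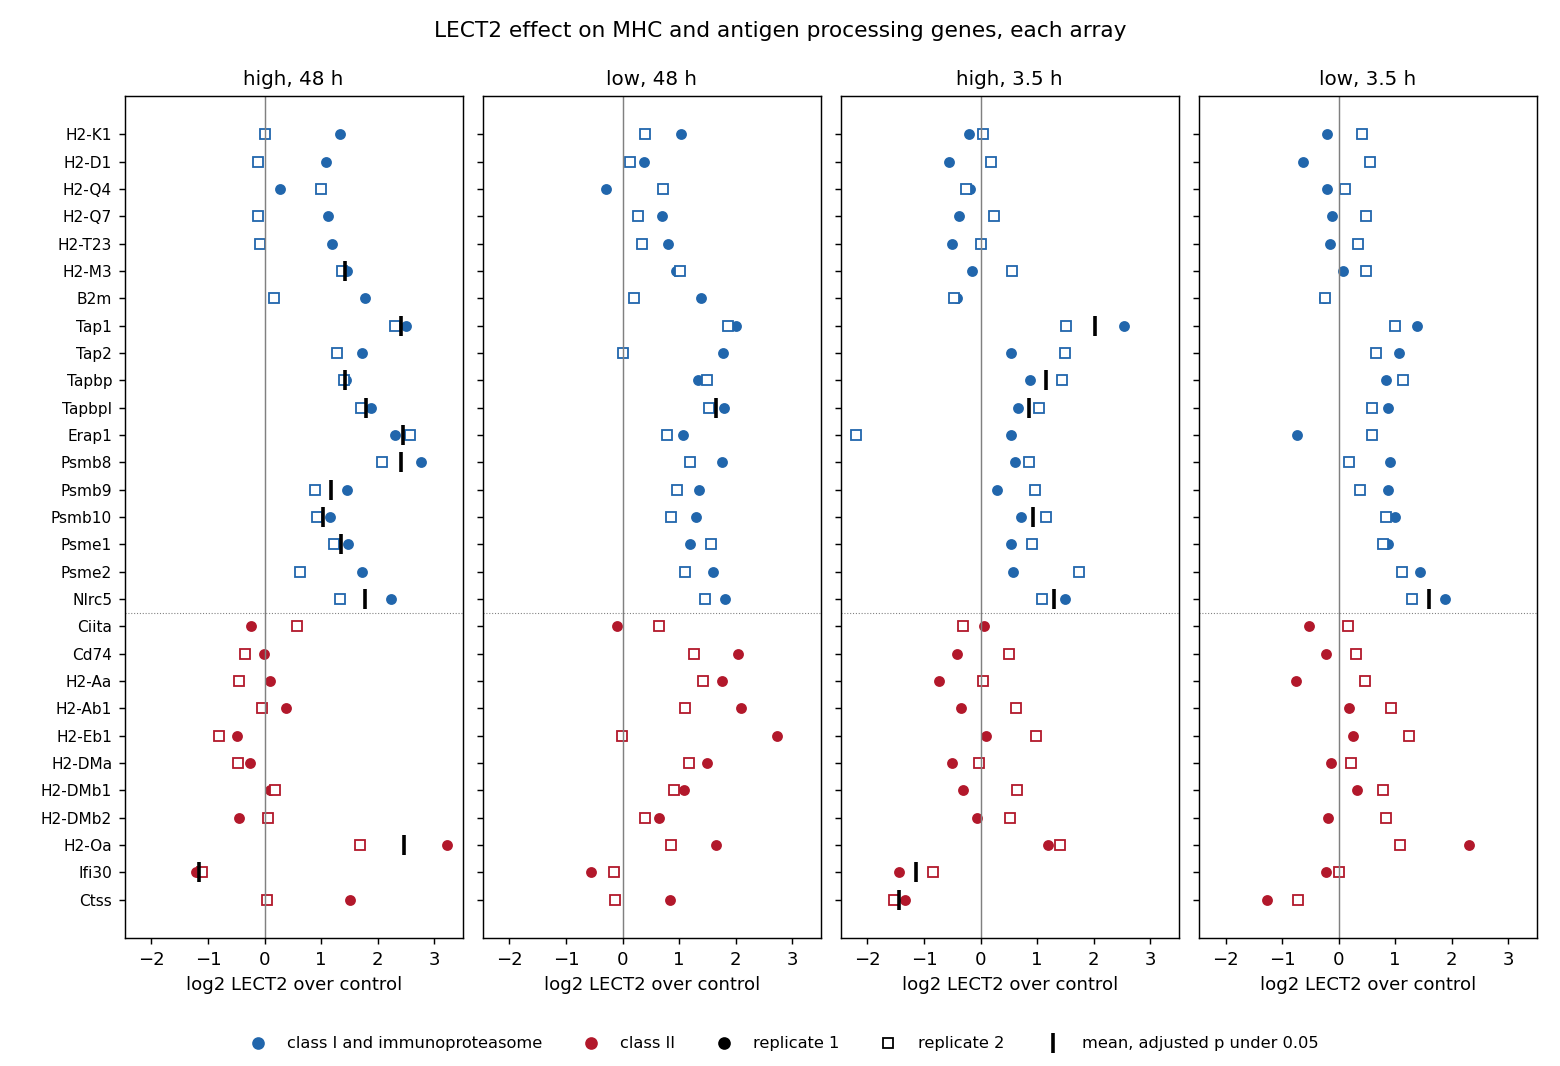
Log2 LECT2 over control (x axis) of the 29 genes (rows) in the 4 groups (panels), with 1 filled circle for replicate 1 and 1 open square for replicate 2. Black bars mark means with an adjusted p under 0.05; there are 12 at the high dose and 48 h, 1 at the low dose and 48 h, 7 at the high dose and 3.5 h and 1 at the low dose and 3.5 h.

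The peptide transporter subunit Tap1 was at 2.51 and 2.31 on the arrays of the high dose and 48 h. Its normalised log2 signal was 11.44 and 11.28 in the LECT2 channels, against 9.18 and 9.15 in the control channels. Its mean was 2.41 ± 0.28, a 5.31-fold level (adjusted p = 0.00555). The second transporter subunit Tap2 was at 1.73 and 1.28, above 0 on both arrays, with a mean of 1.5 ± 0.43 that did not pass (adjusted p = 0.0621). The loading factor Tapbp rose by 1.42 ± 0.23 (1.44 and 1.40 on the arrays, adjusted p = 0.0128). Tapbpl, the related peptide editor TAPBPR, rose by 1.80 ± 0.22 (1.89 and 1.71, adjusted p = 0.00601). The trimming peptidase Erap1 was at 2.31 and 2.58 with a mean of 2.45 ± 0.59 (adjusted p = 0.0395); its probe was the dimmest of the set, and its value with the files as recorded was -0.23.

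The 250 bases upstream of the annotated start of Tap1 are shown because Tap1 and the immunoproteasome gene Psmb9 are read in opposite directions from starts 226 bases apart, and both genes rose together in this group. In RefSeq's window on GRCm38.p6 (chr17:34187306-34187555, plus strand) capitals mark CCAAT and TGACG, the letters of the NF-Y site and of a cyclic AMP response element core.
Tap1: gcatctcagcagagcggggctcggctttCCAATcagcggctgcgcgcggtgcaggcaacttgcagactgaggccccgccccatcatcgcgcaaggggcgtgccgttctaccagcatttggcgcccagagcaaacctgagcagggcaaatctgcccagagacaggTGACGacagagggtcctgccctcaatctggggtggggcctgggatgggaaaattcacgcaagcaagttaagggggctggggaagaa

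The catalytic immunoproteasome subunits, which replace constitutive subunits in activated cells, rose as well. Psmb8 was at 2.76 and 2.07 at the high dose and 48 h. Its signal was 15.03 and 14.77 in the LECT2 channels, against 12.26 and 12.72 in the control channels. The mean of 2.42 ± 0.29 is a 5.34-fold level (adjusted p = 0.00573). Psmb9 rose by 1.18 ± 0.27 (1.46 and 0.90, adjusted p = 0.036) and Psmb10 by 1.04 ± 0.23 (1.15 and 0.93, adjusted p = 0.0312). Psme1, a subunit of the proteasome activator PA28, rose by 1.35 ± 0.22 (1.48 and 1.23, adjusted p = 0.0135). Its partner subunit Psme2 was at 1.73 and 0.62, a mean of 1.18 ± 0.37 that did not pass (adjusted p = 0.0797). A second, dimmer Psme2 probe gave a mean of 1.57 in the same group.

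Another 16 proteasome genes were listed for comparison. They are Psmb5, Psmb6 and Psmb7, which immunoproteasome subunits replace, subunits of both proteasome forms, the activator Psme3 and the assembly factor Pomp. Of the 16 genes 2 rose at the high dose and 48 h and none fell, against 4.3% and 6.92% of all genes. These were Psmb7 (1.51 ± 0.32, adjusted p = 0.027), the catalytic subunit that Psmb10 replaces, and Psma5 (1.35 ± 0.27, adjusted p = 0.0227), a subunit of the outer ring. The median of the 16 genes was 0.59, against 1.18 for the 5 genes of the immunoproteasome and PA28.

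Nlrc5 was at 2.23 and 1.33, with signals of 11.49 and 11.31 in the LECT2 channels, against 9.42 and 10.02 in the control channels. Its mean was 1.78 ± 0.29 (3.44-fold, adjusted p = 0.0139). A second, dimmer Nlrc5 probe gave only 0.28 in the same group and between 0.38 and 0.52 in the other groups, so that the probes of this gene differ in size while sharing their sign.

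The class I heavy chains followed another pattern from the genes that feed them. The classical chains H2-K1 and H2-D1 and the nonclassical chains H2-Q7 and H2-T23 lay close together on each array. They were between 1.08 and 1.34 on replicate 1 of the high dose and 48 h, but between -0.12 and 0 on replicate 2. At the low dose and 48 h they were between 0.38 and 1.04 on replicate 1 and between 0.13 and 0.40 on replicate 2. None of the 4 passed at either dose. H2-K1, for example, had a mean of 0.67 ± 0.35 at the high dose (adjusted p = 0.25) and 0.72 ± 0.35 at the low dose (adjusted p = 0.55). With median centring their means at both doses were negative, at the high dose at -0.16 for H2-K1, -0.36 for H2-D1, -0.36 for H2-Q7 and -0.28 for H2-T23, while the median over all genes moved to -0.25. These genes have near-identical stretches, so that their probes may read one another's transcripts. A second, dimmer H2-K1 probe gave means of 1.15 at the high dose and 0.73 at the low dose.

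Among the rest of this group, H2-Q4 was at 0.28 and 1.00, a mean of 0.64 ± 0.30 that did not pass (adjusted p = 0.207) and was -0.19 after median centring. B2m, the light chain of every class I molecule, was at 1.78 and 0.16 at the high dose and 48 h, with a mean of 0.97 ± 0.41 that did not pass (adjusted p = 0.165). H2-M3, which presents N-formylated peptides, was the member of this group that rose, at 1.46 and 1.37 with a mean of 1.42 ± 0.24 (adjusted p = 0.016). Its signal was 13.14 and 13.41 in the LECT2 channels, against 11.61 and 12.06 in the control channels.

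Of 10 other class I-like genes that were tested from a list of 13, 4 rose at the high dose and 48 h and none fell. Of all genes tested 4.3% rose and 6.92% fell. Cd1d1, which presents lipids to natural killer T cells, was at 4.42 and 3.76, with a mean of 4.09 ± 0.56 (17.0-fold, adjusted p = 0.00886). The nonclassical genes H2-T10 (1.84 ± 0.35, adjusted p = 0.02) and H2-Q8 (1.78 ± 0.30, adjusted p = 0.015) rose as well. These share sequence with the heavy chains above, and the same reservation about their probes holds. Calr, the chaperone calreticulin that holds new class I molecules, was the gene among 4 folding chaperones that passed, and it fell by 1.51 ± 0.21 (adjusted p = 0.00957).

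The class II chains at 48 h differed between the doses in size, although no difference between doses passed the threshold. Cd74 was at -0.01 and -0.35 at the high dose, against 2.05 and 1.27 at the low dose. In the LECT2 channels its signal was 14.97 and 15.16 at the high dose and 16.46 and 16.38 at the low dose. In the control channels of the same arrays it was 15.03 and 15.47 beside the high dose and 14.74 and 15.12 beside the low dose. The LECT2 channels of the low dose thus stood above the other 48 h channels, which overlapped.

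H2-Aa, the alpha chain of I-A, was at 0.10 and -0.46 at the high dose, against 1.75 and 1.43 at the low dose. H2-Ab1, its beta chain, was at 0.38 and -0.05 at the high dose and at 2.09 and 1.11 at the low dose. For each of these genes the arrays of the doses did not overlap. How many of all genes were like this was not determined. The I-E beta chain H2-Eb1 was at -0.49 and -0.81 at the high dose, against 2.73 and -0.01 at the low dose, so that replicate 1 sets its value. H2-DMa, a chain of the peptide exchange factor, was at -0.26 and -0.47 at the high dose and at 1.49 and 1.17 at the low dose. Its partners followed with smaller gaps, H2-DMb1 at 0.10 and 0.19 against 1.08 and 0.91, and H2-DMb2 at -0.45 and 0.06 against 0.65 and 0.40, high dose before low.

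As differences of the group means, high minus low at 48 h, Cd74 gave -1.84 ± 0.44 (95% interval -2.87 to -0.81, adjusted p = 0.296). H2-Aa gave -1.77 ± 0.49 (adjusted p = 0.322), H2-Ab1 -1.43 ± 0.50 (adjusted p = 0.408) and H2-DMa -1.69 ± 0.33 (adjusted p = 0.238). Of the 29 genes 0 passed in limma's fit, 6 had an unadjusted p under 0.05, and the share of all genes that passed was 0%. An unadjusted p under 0.05 was found for 2737 of all 26123 genes. Against control alone the low dose at 48 h did not pass for these genes either (Cd74 1.66 ± 0.31, adjusted p = 0.12; H2-DMa 1.33 ± 0.23, adjusted p = 0.0975). With the files as recorded the median difference of the 11 class II genes turned to 0.58, where the table gives -0.85. With median centring that difference was -0.99, with a class II median of -0.64 at the high dose and 0.42 at the low dose.

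**Figure D2:**
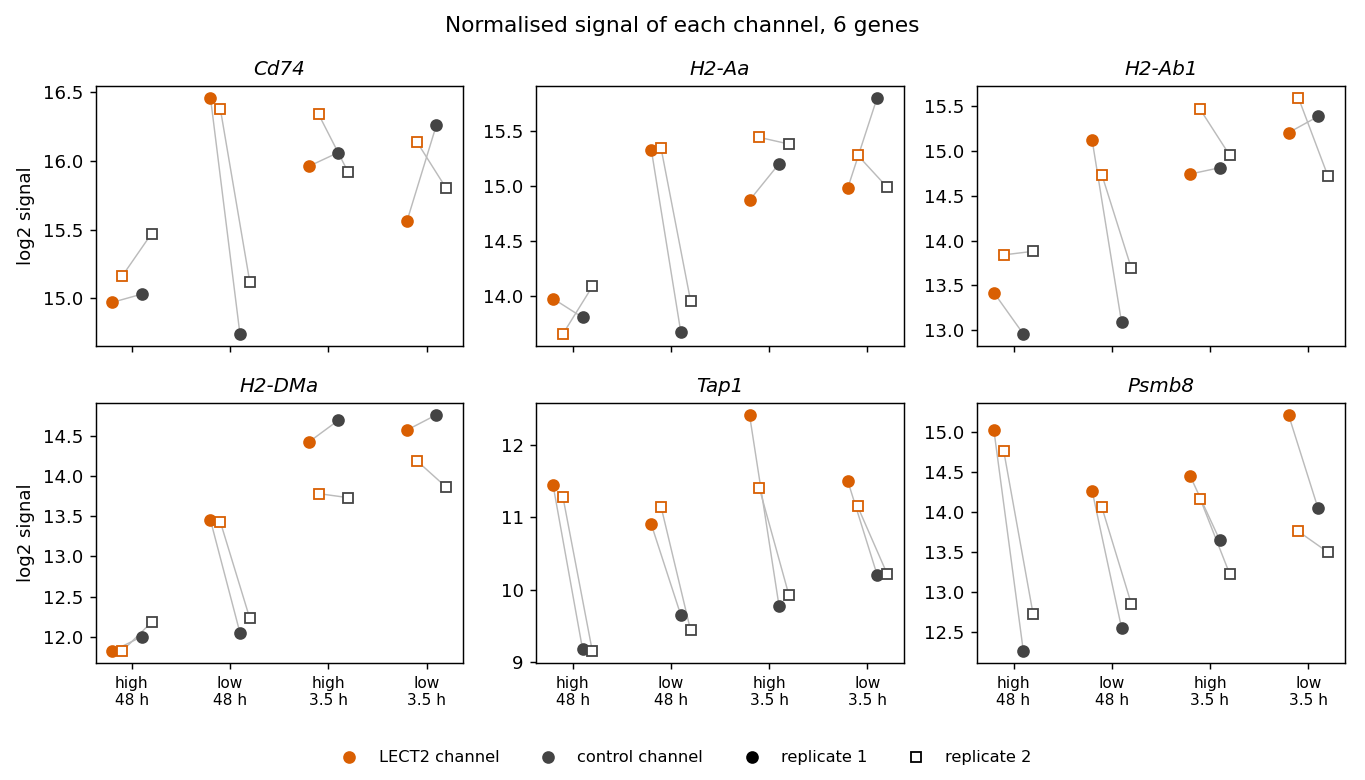
Log2 signal of the LECT2 channel (left point of each pair) and of the control channel (right point), scaled between arrays, for 6 genes (panels) in the 4 groups (x axis), with circles for replicate 1 and squares for replicate 2. Cd74, H2-Aa, H2-Ab1 and H2-DMa separate from control at the low dose and 48 h, where Cd74 has 16.46 and 16.38 against 14.74 and 15.12, whereas Tap1 and Psmb8 lie above control in every group (with median centring Psmb8 is at -0.09 at the high dose and 3.5 h).

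The promoter of H2-Aa is shown because class II promoters are known for an X2 box, with the letters of a cyclic AMP response element, upstream of a reversed CCAAT (the Y box), and both sets of letters occur here in that order. In the 250 bases upstream of its annotated start on GRCm38.p6 (chr17:34287824-34288073, minus strand) capitals mark GGGA and, after any 4 bases, CC, which are the letters of an NF-kappaB site, then TGACGTCA, which holds TGACG on both strands, then ATTGG, which is CCAAT on the other strand.
H2-Aa: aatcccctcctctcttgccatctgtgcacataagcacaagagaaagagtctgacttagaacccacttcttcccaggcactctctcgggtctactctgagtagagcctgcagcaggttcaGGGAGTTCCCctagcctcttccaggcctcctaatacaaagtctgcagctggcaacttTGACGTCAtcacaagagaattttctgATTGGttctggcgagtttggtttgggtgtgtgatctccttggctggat

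Ciita did not move with the class II chains. It was at -0.24 and 0.58 at the high dose and at -0.10 and 0.65 at the low dose at 48 h, with means of 0.17 ± 0.31 and 0.27 ± 0.31 (adjusted p = 0.752 and 0.83). Among the 7 RFX, NF-Y and Creb1 factors that bind the promoters of both classes, Nfyc fell by 0.89 ± 0.20 at the high dose and 48 h (adjusted p = 0.0319) and none passed at the low dose. Rfxap, which joins Rfx5 in the same complex, fell by 1.15 ± 0.21 at the high dose and 3.5 h (adjusted p = 0.00991). H2-Oa, a chain of H2-DO, which restrains H2-DM, was the class II gene that rose at the high dose and 48 h. It was at 3.23 and 1.69, with signals of 10.39 and 9.90 in the LECT2 channels against 7.79 and 8.44 in the control channels. Its mean of 2.46 ± 0.43 is a 5.50-fold level (adjusted p = 0.0168). H2-Ob, the other chain of H2-DO, was at a mean of 0.13 in this group, and a second, dimmer H2-Ob probe gave -0.57.

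The endosomal processing genes Ifi30 and Ctss differed from each other. Ifi30, the thiol reductase GILT that opens disulfide bonds of antigens, was at -1.22 and -1.11 at the high dose and 48 h and fell by 1.16 ± 0.24 (adjusted p = 0.0248). At the low dose and 48 h it was at -0.55 and -0.16 and did not pass (adjusted p = 0.679). Ctss, the cathepsin that cleaves the invariant chain, was at 1.51 and 0.05 at the high dose and at 0.83 and -0.14 at the low dose, without passing at either dose. Of 11 further endolysosomal and class II trafficking genes 5 fell at the high dose and 48 h and none rose, against 6.92% and 4.3% of all genes. The largest falls were those of the proteases Ctsd (-1.97 ± 0.22, adjusted p = 0.00526) and Lgmn (-1.91 ± 0.24, adjusted p = 0.00662), followed by Cd83 (-1.61 ± 0.38, adjusted p = 0.0378), a surface protein that keeps class II from degradation. None of the 11 passed at the low dose and 48 h. The probes of Marchf1, another of the 11, disagreed at the high dose and 48 h. Its brightest probe, which was the one used, gave -0.46, and a second, dimmer probe gave 2.65.

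At the low dose and 48 h 1 of the 29 genes passed, against 0.172% of all genes tested. This was Tapbpl, at 1.79 and 1.53 (1.66 ± 0.22, adjusted p = 0.0488). With the experiment as a block, where 0.31% of all genes rose, 3 passed, Tap1 (1.94 ± 0.28, adjusted p = 0.0351 with the block) and Nlrc5 (1.63 ± 0.29, adjusted p = 0.0415 with the block) besides Tapbpl. The median of the 18 class I genes was 1.02 and that of the 11 class II genes 1.25, where all genes had a median of 0.02. Both arrays were above 0 for 24 of the 29 genes, whereas 30% of all genes tested had both arrays above 0. No member passed with median centring, nor without the background filter.

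The class I median minus the class II median on each array was 1.48 and 1.16 at the high dose and 48 h, a mean of 1.32 ± 0.23 (SD, n = 2). At the low dose and 48 h it was -0.18 and 0.05, a mean of -0.06 ± 0.17. At 3.5 h it was 0.87 and 0.37 at the high dose and 1.05 and 0.11 at the low dose, with means of 0.62 ± 0.36 and 0.58 ± 0.67. The arrays of the high dose and 48 h thus had a wider gap between the classes than any other array. With the files as recorded the gap was 0.33 at the high dose and 1.15 at the low dose at 48 h, the opposite order.

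**Figure D3:**
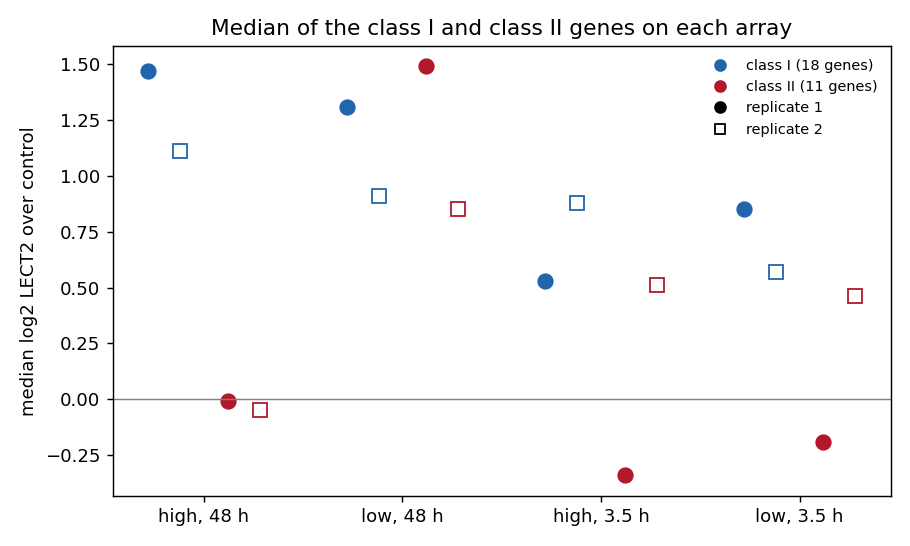
Median log2 LECT2 over control (y axis) of the 18 class I and 11 class II genes on each of the 2 arrays of the 4 groups (x axis). Class II medians are -0.01 and -0.05 at the high dose and 48 h and 1.49 and 0.85 at the low dose and 48 h, while class I medians lie between 0.53 and 1.47 on all 8 arrays.

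After 3.5 h of the high dose 5 of the 29 genes rose and 2 fell, against 21.9% of all genes that passed in either direction, 10.2% that rose and 11.7% that fell. The share of members that passed is close to that background. With median centring 1 rose and 11 fell, against 10.9% and 34.7% of all genes that rose and fell in that setting, and the median over all genes moved to -0.27. Both arrays were above 0 for 12 of the 29 genes, against 37.2% of all genes. With the experiment as a block H2-Oa was added (1.30 ± 0.43, adjusted p = 0.0313 with the block). The 5 were class I genes, with Tap1 first at 2.54 and 1.51 (2.03 ± 0.28, adjusted p = 0.00375). Its signal was 12.41 and 11.40 in the LECT2 channels, against 9.78 and 9.93 in the control channels. Nlrc5 rose by 1.29 ± 0.29 (1.5 and 1.08, adjusted p = 0.0203), Tapbp by 1.16 ± 0.23 (0.88 and 1.44, adjusted p = 0.0117), Psmb10 by 0.93 ± 0.23 (0.71 and 1.15, adjusted p = 0.0268) and Tapbpl by 0.85 ± 0.22 (0.67 and 1.03, adjusted p = 0.0301). The 2 that fell were the endosomal genes Ctss, at -1.33 and -1.54 (-1.44 ± 0.39, adjusted p = 0.036), and Ifi30, at -1.44 and -0.84 (-1.14 ± 0.24, adjusted p = 0.0151).

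The class II chains and H2-DM did not separate from control at the high dose and 3.5 h, with Cd74 at -0.41 and 0.51 and H2-Aa at -0.73 and 0.04. With median centring they were lower, with Cd74 at -0.90 and H2-Aa at -1.16. The bright heavy chains H2-K1, H2-D1, H2-Q7 and H2-T23 lay between -0.56 and -0.20 on replicate 1 and between 0.01 and 0.24 on replicate 2. After 3.5 h 4 of the 11 endolysosomal genes fell, against 11.7% of all genes tested. They were led by Ctsb (-1.69 ± 0.25, adjusted p = 0.00475), Ctsd (-1.65 ± 0.22, adjusted p = 0.00341) and Lgmn (-1.33 ± 0.24, adjusted p = 0.00895). Of the 10 class I-like genes 3 rose and 2 fell, against 10.2% and 11.7% of all genes. Mr1, which presents vitamin B metabolites, fell by 1.47 ± 0.23 (adjusted p = 0.00581), H2-Q8 rose by 1.44 ± 0.30 (adjusted p = 0.0151) and H2-T10 by 1.38 ± 0.35 (adjusted p = 0.0286). None of the 16 comparison genes of the proteasome passed at this dose and time.

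Nlrc5 was the gene that passed at the low dose and 3.5 h, at 1.89 and 1.30 (1.59 ± 0.29, adjusted p = 0.0275), against 4.88% of all genes tested. Both arrays were above 0 for 15 of the 29 genes, against 33.3% of all genes. With the experiment as a block, where 3.58% of all genes rose, 4 passed, Tap1 (1.18 ± 0.28, adjusted p = 0.038), Tapbp (0.98 ± 0.23, adjusted p = 0.0459) and H2-Oa (1.69 ± 0.43, adjusted p = 0.0321) being added. With median centring 2 rose and 6 fell, against 2.95% and 10.2% of all genes that rose and fell in that setting. All 5 genes of the immunoproteasome and PA28 were above 0 on both arrays at this dose and time, with means from 0.54 to 1.28, and none passed (with median centring Psmb9 was at -0.06). Of the 10 class I-like genes H2-Q8 rose (1.37 ± 0.30, adjusted p = 0.0469) and Mr1 fell by 1.39 ± 0.23 (adjusted p = 0.0198). Of all genes tested 2.73% rose and 2.15% fell.

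Between the times, 48 h minus 3.5 h, 2 of the 29 genes were higher at 48 h at the high dose, against 8.31% of all genes that differed, 4.52% that were higher and 3.79% that were lower. Psmb8 had 2.76 and 2.07 at 48 h, against 0.60 and 0.85 at 3.5 h, a difference of 1.69 ± 0.41 (adjusted p = 0.0463). Ctss had 1.51 and 0.05 at 48 h, against -1.33 and -1.54 at 3.5 h, a difference of 2.22 ± 0.55 (adjusted p = 0.0495). For the low dose 0 of the 29 passed in limma's fit (5 with an unadjusted p under 0.05), where 0.0995% of all genes did (2718 of 26123 unadjusted). The early and late responses of Tap1 did not differ beyond their error at the high dose (0.38 ± 0.40, 95% interval -0.54 to 1.31, adjusted p = 0.578). Between the doses at 3.5 h 0 of the 29 genes passed in limma's fit (1 with an unadjusted p under 0.05), as did 0% of all genes (2046 of 26123 unadjusted).

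Genes of the interferon gamma pathway were set beside these values, from a list of 9. At the high dose and 48 h 6 rose and 1 fell, against 4.3% and 6.92% of all genes tested that rose and fell. Ifng itself was well above background in the LECT2 channels, with signals of 9.02 and 9.79, and not well above background in the control channels of either array. A nominal lower bound put its level 7.47-fold higher after LECT2. The adjusted p of 0.00601 is that of limma's fit of the ratios, not of this bound. The lower bound sets the mean of the LECT2 channels against, for each control channel, the higher of its own value and the dimmest signal that was well above background. That rule left the measured mean of the control channels at 6.51, so that the bound equals the ratio of these normalised signals. On the log2 scale of the deposited ratios, used for the other values here, the mean of Ifng was 6.03. The size of either value rests on control signals that were not well above background. The transcription factor Irf1 rose by 2.22 ± 0.24 (adjusted p = 0.00484) and the kinase Jak2 by 2.27 ± 0.27 (adjusted p = 0.00605). The feedback inhibitor Socs1 rose by 2.23 ± 0.29 (adjusted p = 0.00718). The gene that fell, named after its value was seen, was the receptor chain Ifngr1 (-1.36 ± 0.22, adjusted p = 0.0131).

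None of the 9 genes passed at the low dose and 48 h, where 0.172% of all genes tested did. Ifng and Socs1 passed there with the experiment as a block. Irf1 was at 1.67 and 1.26 there (1.47 ± 0.24, adjusted p = 0.0862). Ifng was not well above background in either control channel, and its nominal lower bound, again the ratio of the normalised signals, was 1.39-fold. Its mean in the deposited ratios was 3.34 on the log2 scale. Limma's fit of the ratios gave an adjusted p of 0.156, and 0.0439 with the experiment as a block. At the high dose and 3.5 h 4 rose, against 10.2% of all genes tested. These were Socs1 by 3.32 ± 0.29 (adjusted p = 0.000888), Ifng by 3.25 ± 0.73 (adjusted p = 0.0192), Jak2 by 2.52 ± 0.27 (adjusted p = 0.00167) and Irf1 by 1.76 ± 0.24 (adjusted p = 0.00367). After 3.5 h of the low dose 3 rose, against 2.73% of all genes tested. These were Socs1 by 2.63 ± 0.29 (adjusted p = 0.00545), Jak2 by 2.16 ± 0.27 (adjusted p = 0.00868) and Irf1 by 1.58 ± 0.24 (adjusted p = 0.0153). Ifng was at 3.65 and 0.32 and did not pass (adjusted p = 0.165, and 0.0495 with the experiment as a block).

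A promoter window from 250 bases before to 50 bases after an annotated start was found for 24 of the 30 genes in RefSeq's table (GRCm38.p6), and a gene with several starts was counted once. Tap2, Tapbpl, Nlrc5, Ciita, Cd74 and H2-Ab1 were not in it. Motifs were searched on both strands, each on its own, so that matches of different motifs may overlap. The letters of an interferon-stimulated response element, GAAA and after any 2 bases GAAA again, were held by 6 of the 24 genes and by 3.44% of all 32851 windows. TTCNNNGAA, the letters of a gamma-activated site, was held by 3 of the 24, which were H2-M3, Psmb8 and H2-DMb2, and by 8.3% of all windows. CCAAT was held by 17 of the 24 and by 37.4% of all windows, TGACG by 12 and by 20.8%, and GGGA with CC after any 4 bases by 9 and by 20.7%. The windows of Tap1 and Psmb9 share 275 bases, so that their CCAAT and TGACG matches count for both genes. These counts are of genes, some with several windows, while the shares are of single windows. Whether they differ was not tested.

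The response element sites of the 5 measured genes among those 6 are shown with 10 bases on either side, since they include genes that rose and genes that did not. Capitals mark the match, which reads TTTC first where it lies on the other strand. At the high dose and 48 h Erap1 and Psme1 rose, while B2m, H2-T23 and Ctss did not pass.
Erap1 (chr13:74639839-74639868, plus strand): ccaccttcacTTTCACTTTCggtcccgggc
Psme1 (chr14:55578493-55578522, plus strand): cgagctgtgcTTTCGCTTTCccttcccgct
B2m (chr2:122147538-122147567, plus strand): ataagaacatGAAACTGAAAatgggaaagt
H2-T23 (chr17:36032806-36032835, minus strand): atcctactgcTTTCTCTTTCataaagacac
Ctss (chr3:95526755-95526784, plus strand): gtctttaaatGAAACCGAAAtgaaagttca

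In cells kept without LECT2 both classes were lower after 48 h than after 3.5 h of culture, and class II by more. Of the 29 genes 10 fell and none rose, against 3.91% and 4.14% of 25810 genes tested that fell and rose, 8.05% in all. The median of the class II genes was -1.40 and that of the class I genes -0.65, on the log2 signal scale, 48 h minus 3.5 h. H2-DMa had signals of 12.57 and 12.82 at 48 h, against 15.42 and 14.49 at 3.5 h (-2.26 ± 0.33, adjusted p = 0.022). H2-Oa had 8.41 and 9.11 at 48 h, against 10.41 and 10.81 at 3.5 h (-1.85 ± 0.29, adjusted p = 0.0242). H2-Aa had 14.45 and 14.67 at 48 h, against 16.22 and 15.86 at 3.5 h (-1.48 ± 0.22, adjusted p = 0.0227). In all 3 genes the times did not overlap, as in other genes listed here. The share of all genes for which this held was not determined.

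The other genes that fell in the control channel were H2-Ab1 (-1.58 ± 0.28, adjusted p = 0.029), H2-DMb2 (-1.40 ± 0.27, adjusted p = 0.0343), Psme1 (-1.35 ± 0.21, adjusted p = 0.0237), Psme2 (-1.14 ± 0.24, adjusted p = 0.0395), Psmb9 (-1.10 ± 0.21, adjusted p = 0.0337), Tapbpl (-0.94 ± 0.21, adjusted p = 0.0477) and Tap1 (-0.89 ± 0.19, adjusted p = 0.0438). Cd74 had 15.68 and 15.95 at 48 h, against 16.90 and 16.57 at 3.5 h, and did not pass (adjusted p = 0.0547). Ciita was higher at 48 h without passing (0.76 ± 0.21, adjusted p = 0.0745). B2m (-0.20 ± 0.22) and Ctss (0.02 ± 0.20) lay near 0.

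**Figure D4:**
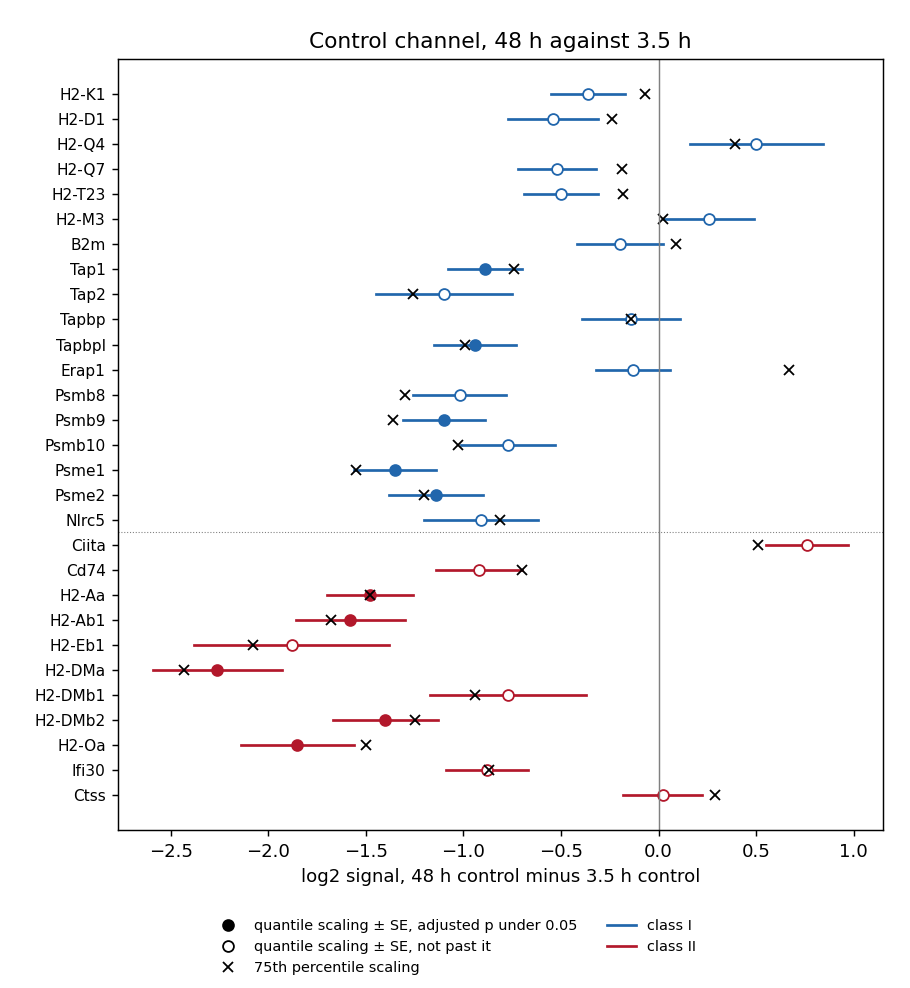
Log2 signal of the control channel at 48 h minus that at 3.5 h (x axis) for the 29 genes (rows), as quantile-scaled means with SE bars (n = 2 per time), filled where the adjusted p was under 0.05, and as crosses after 75th percentile scaling. The 6 genes furthest to the left are class II genes, from H2-DMa at -2.26 to H2-DMb2 at -1.40, while Cd74 (-0.92) and H2-DMb1 (-0.77) lie among the class I genes, and Ciita is on the right at 0.76.

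These control values set arrays of different slides against each other, and slide and time cannot be told apart. With 75th percentile scaling the median of all genes moved to 0.44, the class II median was -1.25 and 2 genes passed, H2-DMa and H2-Eb1. With the experiment as a block 16 of the 29 genes fell, against 7% of all genes that fell in that fit. With the files as recorded 0 passed (0 with an unadjusted p under 0.05, against 49 of all 25810 genes), and the class II median was 0.00.

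Markers of other cells that carry class II moved in the control channel as well, where 3.91% of all genes fell and 4.14% rose. Of 8 B cell markers 3 fell by 48 h and Cr2, the brightest of them, rose by 1.06 (adjusted p = 0.036), with Cd79b at -2.00 ± 0.37 (adjusted p = 0.0308). Their summed log2 signal was 13.11 to 13.26 at 48 h, against 13.14 to 13.51 at 3.5 h. Of the dendritic cell markers 1 of 9 fell, Batf3 (-1.96 ± 0.40, adjusted p = 0.0389), and the sum over the 10 listed was 12.77 to 13.21 at 48 h, against 13.28 to 14.03 at 3.5 h. Of 11 T and NK cell markers 4 fell, and of 9 macrophage markers 1. No listed B cell marker was below background in the control channel. In these samples fewer cells of a type and less RNA per cell cannot be told apart, and the part of these cells in the control values was not tested.

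Between the doses at 48 h, high minus low, 6 of the 8 B cell markers were below 0, as Cd74 was, with a median of -0.58. The dendritic cell markers had 5 of 10 below 0 (median 0.07) and the T and NK cell markers 8 of 11 (median -0.17), beside a median of -0.04 over all genes. None of these markers passed. The summed B cell signal is carried by Cr2, which was higher at the high dose (0.49). Its probe gave 0.85 at the high dose and 0.36 at the low dose against control. A second, dimmer Cr2 probe gave -0.18 and -0.19. The B cell sum in the LECT2 channels was 13.69 and 13.84 at the high dose and 13.52 and 13.58 at the low dose. The dendritic cell sum in the LECT2 channels was 12.02 and 12.01 at the high dose and 12.36 and 12.18 at the low dose. It was below the 12.77 to 13.21 of the control channels, but a sum follows its brightest genes. Gene by gene, 6 of the 10 dendritic cell markers were above 0 against control at each dose (medians 0.26 high, 0.28 low). At the high dose 2 of them rose and 2 fell, against 4.3% and 6.92% of all genes. The T and NK cell sum, which bears on Ifng, was 12.23 and 12.28 at the high dose and 12.29 and 12.35 at the low dose, against 11.62 to 12.02 in the 48 h control channels. At 3.5 h it was 12.82 to 13.78 in the LECT2 channels, against 12.23 to 12.66 in the control channels. The part of these cells in the class II and Ifng values was not tested.

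With 2 arrays a group, single arrays decide whether a gene passes, for the members and for all other genes. Leaving out 1 array leaves a single array in its group, so that a gene may then fail to pass for want of arrays. Fewer members and fewer of all genes then passed at the high dose, at 48 h and between the times at the high dose. At the low dose and 3.5 h and in the control comparison this depended on the array left out. Without replicate 1 the class I and class II medians at the high dose and 48 h were 1.11 and -0.05, and without replicate 2 they were 1.47 and -0.01. At the low dose and 48 h they were 0.91 and 0.85 without replicate 1 and 1.31 and 1.49 without replicate 2. At the high dose and 3.5 h they were 0.88 and 0.51 without replicate 1 and 0.53 and -0.34 without replicate 2. At the low dose and 3.5 h they were 0.57 and 0.46 without replicate 1 and 0.85 and -0.19 without replicate 2. In the control comparison the class II median ran from -1.62 to -1.06.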

How the data were processed

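Per the file headers and the submitters' processing notes, the authors read the arrays with Agilent Feature Extraction 10.7.3.1. The deposited scanner files hold median spot and background intensity and processed intensity per channel, with a log10 ratio of red (Cy5) to green (Cy3). The authors deposited a log2 ratio of control (Cy5) over LECT2 (Cy3) per probe and array; how it was made is not given in the sources used here, and its sign was reversed. Its 48 h columns equal a scanner file's ratio within 0.01 for 99.5% of probes well above background in both channels, its 3.5 h columns for 3.95% to 14.2%. Column medians lay between -0.22 and 0.08 (control over LECT2).

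A probe was kept if 2 or more arrays showed it well above background in a channel (31587 of 39428). Accessions were named through RefSeq's gene list (26412 probes named, 13017 unnamed), and the brightest probe per gene gave 26123 genes, of which 16732 had a symbol and the rest an accession. Between 56.4% and 82.3% of probes were above background in a channel, and the number of arrays limits precision (median standard error 0.28). Tests used limma 3.58.1 (R 4.3.3): 1 mean per group, moderated variances, 4 residual degrees of freedom, Benjamini-Hochberg adjustment over all genes. Control channels were compared between times in linked files after normexp (offset 50) and quantile scaling; both doses' arrays of an experiment and time were averaged (2 residual degrees of freedom). Channel signals came from linked files after normexp, loess and scaling of mean brightness between arrays. The fit was tested on simulated data. Alternatives were the experiment as a block, no background filter, the mean of a gene's probes, linked files with loess, median centring or processed signals, files as recorded, 75th percentile scaling of the control channel, and leaving out each replicate. Figures were drawn with matplotlib 3.10.9.

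The design text states 2 experiments with different mice, and the replicate numbers of the titles are read as the experiment. Deviations from group means correlated between groups at -0.06 to 0.47 for equal numbers. Named genes are all members, Ifng and Irf1, and per other list and comparison up to 3 that passed with the largest change; some genes named by this rule are not reported here. Members and lists were chosen with earlier results of these data known.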

Additional observations from a re-analysis of the deposited data

Results flagged for a closer look

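Effects of the high dose that differed between 48 h and 3.5 h by the test of the difference itself, among the genes described and the lists beside them, were as follows. All differences are log2, 48 h minus 3.5 h, with limma's adjusted p over 26123 genes. Of all genes tested 8.31% passed this test, 4.52% higher and 3.79% lower at 48 h. Those listed were 2 of 29 members, 2 of 10 class I-like genes, 1 of 4 folding chaperones and 2 of 11 endolysosomal genes. None passed of the 16 comparison genes of the proteasome, 7 RFX, NF-Y and Creb1 factors and 9 interferon gamma genes. Cell marker lists are left out. Whether these lists held more than the share of all genes was not tested. Psmb8 differed by 1.69 ± 0.41 (adjusted p = 0.0463) and Ctss by 2.22 ± 0.55 (adjusted p = 0.0495). Among the class I-like genes H2-Q1 differed by 2.00 ± 0.48 (adjusted p = 0.0465), from a dim probe that was not well above background in the LECT2 channel of 1 of the 2 arrays at 3.5 h, and Mr1 by 1.98 ± 0.33 (adjusted p = 0.0206). The protease Ctsh differed by 1.66 ± 0.29 (adjusted p = 0.0236), Calr by -1.33 ± 0.30 (adjusted p = 0.0405) and Cd83 by -2.25 ± 0.54 (adjusted p = 0.046). All 7 kept their sign and passed with the experiment as a block, with loess and with median centring on linked files, where H2-Q1 was smaller at 1.04. With the files as recorded Psmb8 was at -0.07 and Ctss at -0.57. With 2 arrays a group no array could be tested as standing apart.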

How the results depend on the processing

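Without 1 replicate a group rested on a lone array, which was assumed to vary like the other groups. The sizes in those fits are given above, and the calls of members did not hold there in most comparisons. The replicate block gave 3 members at the low dose and 48 h, 4 at the low dose and 3.5 h and 16 in the control, added H2-Oa at the high dose and 3.5 h, and changed no other member's call. Without the background filter the counts were 0 at the low dose and 48 h, 0 between times at the high dose and 6 in the control. With the mean of probes 12 members rose at the high dose and 48 h, against 4.21% of all genes, and 1 passed between times at the high dose. Linked files with loess gave 3 at the low dose and 48 h, 13 at the high dose and 3.5 h, 7 at the low dose and 3.5 h and 5 between times at the high dose, and a class gap of 0.21 at the low dose and 48 h. Linked processed signals gave 3 at the low dose and 3.5 h. Median centring gave 0 at the low dose and 48 h, 12 at the high dose and 3.5 h (11 of them lower) and 8 at the low dose and 3.5 h (6 lower), with H2-Q7 at -1.26 and H2-T23 at -1.17 at the low dose and 3.5 h reversed; the medians of all genes were then -0.25, -0.14, -0.27 and -0.13 at the high and low dose and 48 h and the high and low dose and 3.5 h. Scaling by the 75th percentile gave 2 in the control. Files as recorded gave 0 at the high dose and 48 h, 2 at the low dose and 48 h, 0 at each dose and 3.5 h, 0 between times at the high dose and 0 in the control, class gaps of 0.33 and 1.15 at the high and low dose and 48 h, and turned Erap1 at the high dose and 48 h to -0.23, the time difference of Psmb8 to -0.07 and of Ctss to -0.57, and in the control H2-DMa to 0.00 and H2-Oa to 0.11. The cause was not tested. A slide block was not run, since the slide equals the time or the replicate. Over these alternatives the adjusted p of Tap1 at the high dose and 48 h ran from 0.00172 to 0.347 and that of Psmb8 from 0.00266 to 0.503.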
